A study of Mus musculus and Rattus norvegicus with 30 samples.

Results

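Hspa5, Hyou1, Creld2, Manf, Dnajb9, Dnajc3, Pdia4, Pdia6, Hsp90b1 and Sdf2l1 encode chaperones and folding factors of the endoplasmic reticulum (ER), the compartment where secreted and membrane proteins fold. These 10 genes were selected on their measured change in mouse hearts given the agonist 332, so their 332 values are a description and carry no test. All 10 were found by gene name among the 32545 genes of the rat table and the 54307 genes of the mouse tables. All 10 were among the 15181 rat genes and the 14047 mouse genes that passed the filter on low counts.

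The study sequenced RNA from 2 heart preparations treated with agonists of the estrogen-related receptors (ERR), nuclear receptors that drive genes of mitochondrial energy metabolism. Neonatal rat ventricular myocytes were isolated from pups at day 3 after birth and kept with bromodeoxyuridine after a step that lets fibroblasts attach elsewhere, and were transfected with siRNA, typically at 25 nM, against ERRalpha and ERRgamma (the knockdown) or with a scramble siRNA. They then received 915, an agonist of the whole ERR family, at 10 µM, or DMSO vehicle, for 24 hours, which gave 4 groups of 3 libraries. Hearts came from wild-type mice that had transverse aortic constriction (TAC), which loads the left ventricle with pressure, or sham surgery, and that were treated for 6 weeks with 332 by intraperitoneal injection or with vehicle. Left ventricles were sequenced from 5 TAC mice on 332, 5 TAC mice on vehicle, 5 sham mice on 332 and 3 sham mice on vehicle. The dose of 332 and the age and sex of the mice are not given in the sources used here. Whether the rat replicates came from separate isolations is not given either, so the rat p-values measure the spread between these libraries only.

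When unfolded proteins build up in the ER, the sensors Ire1, Perk and Atf6 start the unfolded protein response, which raises the chaperones and slows the making of new protein. Atf6 and Xbp1, the factor that Ire1 activates by splicing, raise chaperone genes through the ER stress response element (ERSE) in their promoters, together with the CCAAT-binding factor NF-Y. In heart muscle this response is known from pressure overload and from ischemia, and Manf, Creld2 and Hspa5 are among its usual markers.

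Promoter sequences of these genes were searched for the element through which the response is known to act. They are printed here for the members that held an exact copy. RefSeq windows of 300 bases (250 before to 50 after the annotated start, mouse build GRCm38.p6) were matched for 8 of the 10 genes, with no entry for Hyou1 and Manf. The ERSE was searched as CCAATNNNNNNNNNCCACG on both strands, where N is any base. In the lines below, capitals mark an exact match, and a match on the opposite strand is seen as its reverse complement. Positions count back from the start, with -1 the base just before it.
Hspa5: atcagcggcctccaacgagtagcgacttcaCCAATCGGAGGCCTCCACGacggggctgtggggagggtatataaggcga
Hsp90b1: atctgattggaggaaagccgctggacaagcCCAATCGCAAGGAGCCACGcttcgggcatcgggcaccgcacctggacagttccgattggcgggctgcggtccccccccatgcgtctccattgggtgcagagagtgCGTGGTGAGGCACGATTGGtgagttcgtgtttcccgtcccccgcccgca
Pdia6: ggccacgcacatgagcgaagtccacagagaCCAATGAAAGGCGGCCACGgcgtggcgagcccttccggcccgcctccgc
Dnajc3: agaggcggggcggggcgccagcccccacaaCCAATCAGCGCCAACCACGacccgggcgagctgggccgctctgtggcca
Creld2: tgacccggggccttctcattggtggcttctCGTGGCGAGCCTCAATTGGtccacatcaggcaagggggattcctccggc

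The stretch of Hspa5 is chr2:34771995-34772073 on the plus strand, with its match at -65 to -47. That of Hsp90b1 is chr10:86705503-86705686 on the minus strand, and it held 2 matches, at -212 to -194 on the strand of the gene and at -107 to -89 on the other. Pdia6 (chr12:17266461-17266539, plus strand) matched at -98 to -80 and Dnajc3 (chr14:118937797-118937875, plus strand) at -105 to -87. Creld2 (chr15:88819490-88819568, plus strand) matched at -126 to -108 on the strand opposite to the gene. An exact ERSE thus stood in 5 of 8 member windows, against 39 of all 32851 windows (0.119%). With at most 1 mismatch in its 10 fixed letters, a search added after the data were seen, it stood in 6 of 8, Pdia4 being the addition, against 1.5% of all windows.

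The end of the element alone, CCACG, was found in all 8 windows, in a background of 32.8%. CCACG lies within the ERSE, so these matches overlap. The variant ERSE-II, the element TGACGTGG and the ERR-type element TCAAGGTCA each matched 0 of 8 windows, against 0.0365%, 0.676% and 0.423% of all windows. A match describes letters in a window and is not evidence of binding. Another 32 genes held an exact ERSE, of which 13 were tested in mouse. Their median log2 change with 332 in TAC hearts was -0.08, with 10 below 0 and 0 called by edgeR. Since the members were chosen for their change with 332, this median is not set against theirs.

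**Figure D1:**
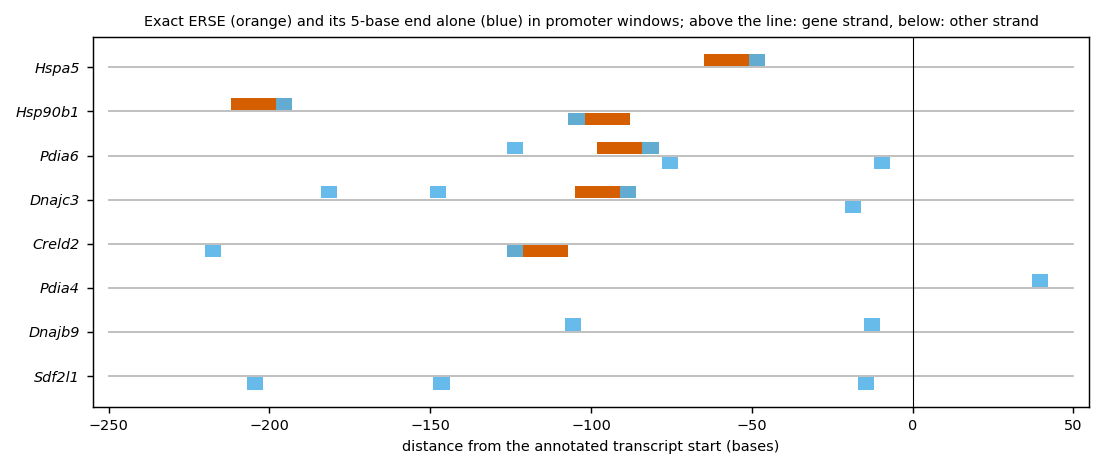
Positions of the exact ERSE (orange) and of its 5-base end (blue) in the 8 member promoter windows, by distance in bases from the annotated start. Boxes above a line lie on the strand of the gene and boxes below it on the other strand; Hsp90b1 holds 2 ERSE copies, and Pdia4, Dnajb9 and Sdf2l1 hold none.

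The libraries held 12013379 to 18315341 counts in rat and 11375894 to 16599899 in mouse. Levels are given as CPM, in which each count is divided by its library total after TMM scaling, a method that offsets differences in composition. The targeted genes were low in every knockdown library: Esrra lay between 12.7 and 21.9 CPM there and between 169 and 229 CPM with scramble siRNA, and Esrrg between 16.1 and 25.1 CPM against 130.3 to 302 CPM. Summed cardiomyocyte markers ran from 48211 to 77967 CPM in the hearts, where all 10 of 10 were detected. In the myocyte cultures they ran from 7969 to 21738 CPM, over 9 of 10 markers. These cultures also held fibroblast and matrix genes, at 15378 to 30579 CPM over 14 of 14 markers. The sums are not ranked against each other, since the lists differ in size and CPM is not scaled to transcript length. In bulk RNA, fewer cells of a type and less RNA per cell cannot be told apart. The mouse libraries fall into file set 1 (replicates 1 to 3, lanes 3 and 4) and file set 2 (replicates 4 and 5, lane 1), a split that the fit carries as a term. Sham vehicle hearts are in set 1 only. All 3 sham 332 libraries of set 1 are from lane 3 and all other libraries of that set from lane 4, so lane and 332 cannot be told apart in those sham hearts.

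Among the ER members, levels can be compared per unit of transcript length. In scramble vehicle myocytes the deposited FPKM put Hspa5 first at 428 ± 6.15 (SD, n = 3), then Hsp90b1 at 221 ± 5.63, Pdia6 at 193 ± 4.38 and Manf at 135 ± 9.21. Hyou1 (89.1), Pdia4 (78.2) and Dnajc3 (49.3) followed, and Creld2 (27.6), Dnajb9 (27.0) and Sdf2l1 (21.9 FPKM) were lowest. The FPKM ranges of Creld2 and Dnajb9 overlapped. In sham vehicle hearts the deposited TPM of protein-coding transcripts, a sum chosen after the data were seen, put Hspa5 first at 47.1 ± 5.05 (SD, n = 3) and Hsp90b1 next at 30.2 ± 5.08. Dnajb9 followed at 8.97 TPM, then Pdia6 at 5.75 TPM and Manf at 5.58 TPM, and the ranges of Pdia6 and Manf overlapped. Among Pdia4 (3.06), Creld2 (2.77) and Dnajc3 (2.60 TPM) each neighbour overlapped with the next, and Hyou1 (1.22) and Sdf2l1 (0.621 TPM) were lowest. Summed over all transcript models, Hsp90b1 came to 144 TPM and Hyou1 to 3.04 TPM. Of the Hsp90b1 sum 99.97 TPM was from Hsp90b1-205, a retained-intron model that took 2.13% of its reads, so the order is not read from those sums. In mouse a single transcript took 98.5% of Hspa5 reads and 98.8% of Pdia6 reads, while Hyou1 was split between Hyou1-201 (59.5%) and Hyou1-204 (31.8%).

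In TAC hearts, the members stood lower with 332 than with vehicle. All 10 fitted fold changes were below 0, with a median of -0.32 on the log2 scale, against 0.01 over all genes tested. In 7 of 10 members every 332 library lay below every vehicle library in CPM, a pattern that 0.783% of all tested genes showed. The 7 were Hspa5, Hsp90b1, Hyou1, Pdia4, Manf, Creld2 and Sdf2l1. In the deposited TPM, summed over all transcript models, the ranges overlapped for each of these 7. Manf, for example, ran from 6.40 to 15.2 TPM on 332 and from 7.98 to 22.1 TPM on vehicle. Since the members were chosen for this change, nothing is read from the count of 7.

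**Figure D2:**
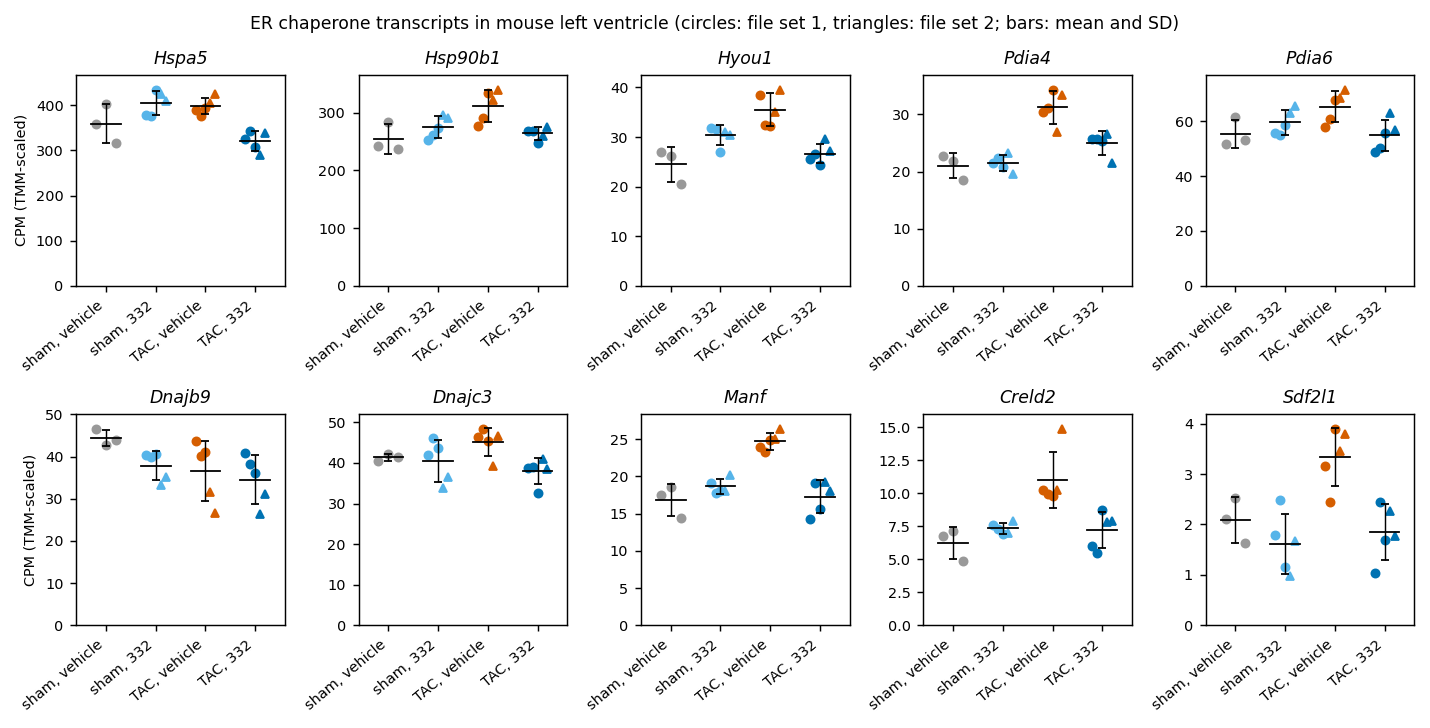
CPM of each member in every mouse library (points; circles are file set 1, triangles file set 2), with the group mean and SD. The TAC vehicle hearts stand above the TAC hearts on 332 for Manf (23.3 to 26.3 against 14.3 to 19.3 CPM), while the groups overlap for Dnajb9, Dnajc3 and Pdia6.

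Hspa5 encodes BiP, the Hsp70-type chaperone that holds nascent chains and keeps the sensors silent. It stood at 389, 377, 395, 404 and 426 CPM in the TAC hearts on vehicle and at 325, 343, 306, 289 and 338 CPM in those on 332. Sham hearts gave 358, 402 and 317 CPM on vehicle and 378, 376, 433, 425 and 409 CPM on 332. The TAC hearts on 332 thus lay below every other group except for an overlap with sham vehicle. The change with 332 was -0.31 (SE 0.07) in TAC and 0.15 (SE 0.08) in sham hearts.

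Hsp90b1 encodes Grp94, the Hsp90-type chaperone of the ER, which folds integrins and Toll-like receptors. Its TAC levels were 276, 290, 334, 322 and 339 CPM on vehicle and 269, 268, 248, 260 and 276 CPM on 332. These ranges came close, and the change was -0.24 (SE 0.06). Hyou1, the Grp170 chaperone that also exchanges nucleotide on BiP, stood at 38.4, 32.4, 32.3, 35.1 and 39.4 CPM on vehicle and 25.7, 26.6, 24.3, 29.5 and 27.2 CPM on 332, a change of -0.41 (SE 0.08). In sham hearts the fitted change of Hyou1 with 332 was 0.27 (SE 0.10), and the libraries of those groups overlapped.

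The disulfide isomerases form and reshuffle the disulfide bonds of folding proteins. Pdia4 stood at 30.4, 31.1, 34.2, 26.9 and 33.4 CPM in TAC vehicle hearts and at 25.7, 25.8, 25.3, 26.6 and 21.4 CPM with 332. The groups nearly touched, and the change was -0.32 (SE 0.08). Pdia6 changed by -0.25 (SE 0.06) and its groups overlapped, at 57.8 to 71.2 CPM on vehicle and 48.8 to 62.8 CPM on 332.

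Dnajb9 and Dnajc3 are J-domain proteins, which hand substrates to BiP, and Sdf2l1 works in a complex with proteins of that class. Dnajb9 did not share in the lowering: it stood at 26.6 to 43.8 CPM in TAC vehicle hearts and 26.3 to 40.8 CPM with 332, a change of -0.08 (SE 0.07). Its level followed the file set, at 36.0 CPM or more in the set 1 TAC libraries and 31.7 CPM or less in those of set 2. Dnajc3, which also restrains Perk, changed by -0.25 (SE 0.08), at 39.2 to 48.2 CPM on vehicle and 32.5 to 40.9 CPM on 332. Sdf2l1 had the largest fold change of the members, -0.84 (SE 0.24), at the lowest level: 3.15, 2.45, 3.88, 3.46 and 3.79 CPM on vehicle and 1.03, 2.45, 1.70, 2.26 and 1.78 CPM on 332. In sham hearts Sdf2l1 changed by -0.37 (SE 0.31), so its sham change was within a wide error.

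Manf is a small secreted protein that is retained with BiP and released under stress, and Creld2 is a secreted factor of the same response with disulfide isomerase activity. Manf stood at 24.0, 23.3, 24.9, 25.0 and 26.3 CPM in TAC vehicle hearts and at 14.3, 19.1, 15.6, 19.3 and 18.1 CPM with 332. Sham hearts lay at 14.4 to 18.6 CPM on vehicle and 17.8 to 20.1 CPM on 332. Only the TAC vehicle group stood apart, and 332 changed Manf by -0.51 (SE 0.08) in TAC hearts and by 0.11 (SE 0.10) in sham hearts. Creld2 stood at 10.2, 9.95, 9.82, 10.2 and 14.8 CPM in TAC vehicle hearts and at 6.01, 5.51, 8.72, 7.84 and 7.91 CPM with 332, a change of -0.61 (SE 0.13).

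In sham hearts the median change of the members with 332 was 0.06, with 8 of 10 above 0. Without sham vehicle replicate 3, 1 of only 3 such hearts, it was -0.01 with 3 of 10 above 0, and with a term for the clock score described next it was 0.01 with 5 above 0. The difference of the 332 effects (TAC minus sham) was below 0 for all 10, from -0.77 (SE 0.21) for Creld2 to -0.00 (SE 0.11) for Dnajb9. Without sham vehicle replicate 3 it was below 0 for 9. With the clock term it was also below 0 for 9, and Sdf2l1 stood at 0.35. No test of it is given, as it is built from the contrast that chose the members.

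Clock gene transcripts moved with this result. The clock score, the first principal component of 15 clock genes (85.6% of their variance after centring on file sets, higher where Dbp is higher), lay between -5.14 and -1.35 in TAC vehicle hearts and between -0.22 and 1.96 in TAC hearts on 332. The groups did not overlap. Arntl, a core clock activator, stood at 5.23 to 17.1 CPM in TAC vehicle hearts and 0.922 to 2.24 CPM with 332, while Dbp, a clock output gene, overlapped at 32.3 to 92.2 and 83.9 to 133 CPM.

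With the clock score as a term, all 10 members remained below 0 with 332 in TAC hearts, with a median of -0.25 and larger errors. Hspa5 (-0.33, SE 0.10) and Manf (-0.48, SE 0.12) kept their size, and Dnajb9 became -0.20 (SE 0.10). Pdia4 moved from -0.32 to -0.12 (SE 0.10), Sdf2l1 from -0.84 to -0.30 (SE 0.33) and Creld2 from -0.61 to -0.39 (SE 0.19). The sham heart with the lowest clock score, -2.03 (332, replicate 2), had Creld2 at 7.31 CPM. Its Manf (17.8 CPM) and Hspa5 (376 CPM) were the lowest of the 5 sham hearts on 332. Its Sdf2l1 (2.49 CPM) was the highest of the 5. Nothing is read from this single heart. The part of the clock in the lowering was not tested beyond these fits.

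**Figure D3:**
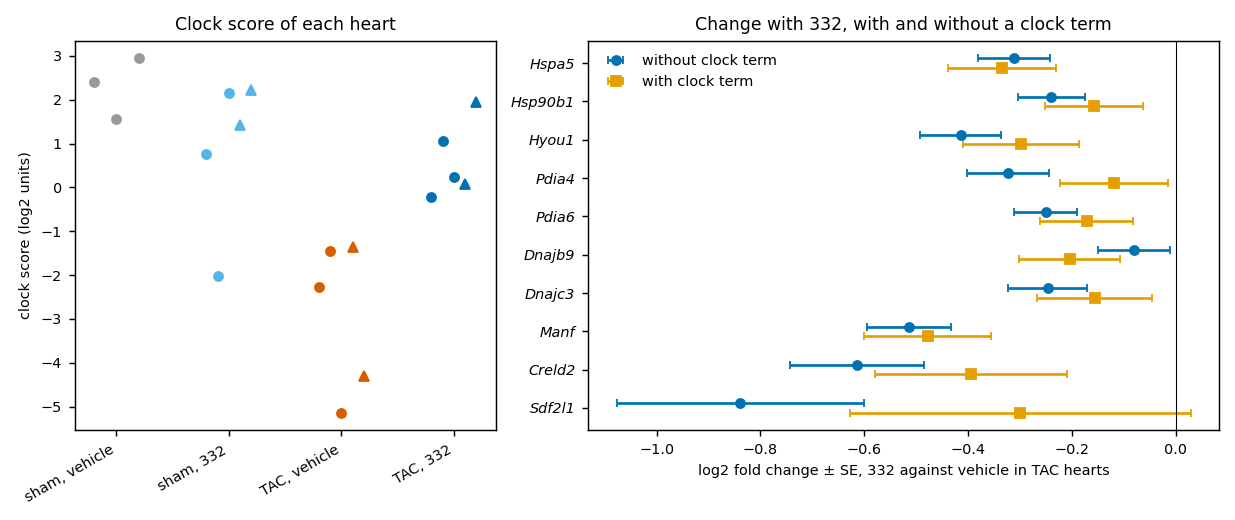
Left, the clock score of each heart (log2 units; circles are file set 1, triangles file set 2). Right, the log2 fold change (± SE) of each member with 332 in TAC hearts without (blue circles) and with (orange squares) the clock score as a term; all remain below 0, with a median of -0.32 and -0.25.

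Other cell types moved less clearly between the TAC groups. Summed leukocyte markers (7 of 8 tested) ran from 160 to 222 CPM in TAC vehicle hearts and from 112 to 164 CPM with 332, which overlapped narrowly, with 0 of 7 called by edgeR, 5 lower at an unadjusted p under 0.05 and 1 lower by DESeq2. Fibroblast and matrix markers (14 of 14) overlapped, at 1813 to 2972 against 1407 to 3595 CPM, as did endothelial, smooth muscle and cardiomyocyte markers. Markers of plasma and B cells, which are rich in these chaperones, were low: 5 of 9 were tested and summed to 4.86 to 11.7 CPM over all hearts, while Jchain, Ms4a1, Tnfrsf17 and Derl3 did not pass the low-count filter. The part of these cells in the result was not tested.

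Few other genes of the pathway were called with 332 in TAC hearts. The members were chosen for their change with 332, so a smaller change in the rest was partly fixed in advance. Among all genes 0.427% were called in either direction by edgeR's quasi-likelihood test at a Benjamini-Hochberg adjusted p of 0.05. The share of all genes at an unadjusted p under 0.05 was not counted. Of 14 sensors and transcription factors 0 were called, with 0 higher and 5 lower at an unadjusted p under 0.05 and 1 lower by DESeq2. Xbp1 changed by -0.21 (SE 0.07, adjusted p = 0.17), Atf6 by -0.16 (SE 0.07) and Ern1, which encodes Ire1, by -0.10 (SE 0.11). Of 42 other ER chaperones and foldases 0 were called, with 1 higher and 7 lower at an unadjusted p under 0.05 and 0 by DESeq2. Calr, the lectin chaperone of glycoproteins, changed by -0.20 (SE 0.07, adjusted p = 0.19), and P4hb, the main disulfide isomerase, by -0.02 (SE 0.09). With the clock term Ern1 stood at 0.03, P4hb at 0.16 and Xbp1 at -0.11.

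ER-associated degradation (0 of 26), translocation and glycosylation (0 of 26) and ER to Golgi transport (0 of 22) held no called gene, and none by DESeq2. At an unadjusted p under 0.05 these lists had 3 lower and 0 higher, 1 lower and 2 higher, and 0 lower and 1 higher. Of 15 tested targets of Atf4 and Perk only Chac1, a glutathione-degrading enzyme, was called. Chac1 stood at 3.97, 4.91, 4.40, 3.52 and 2.21 CPM on vehicle and at 0.858, 1.35, 1.00, 0.918 and 1.38 CPM on 332, a change of -1.74 (SE 0.26, adjusted p = 0.00289 by edgeR). The heat shock gene Dnajb4 (-0.43, SE 0.09) and the clock-linked repressor Nfil3 (-0.53, SE 0.11) were also lower, each with an adjusted p of 0.0367. With the clock term no gene at all was called for 332 in TAC hearts, and Chac1 changed by -1.68, Dnajb4 by -0.43 and Nfil3 by -0.31.

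The effect of TAC averaged over vehicle and 332 hearts was tested, as it weights the vehicle and 332 arms equally. The libraries that chose the members enter it, as does any 332 effect that differs between TAC and sham hearts. Its sham arms are unequal, with 3 hearts on vehicle and 5 on 332. For Hspa5 it averages 0.13 (SE 0.08) in vehicle hearts and -0.33 (SE 0.07) in hearts on 332. In the same order it averages 0.73 and -0.03 for Creld2, 0.51 and -0.11 for Manf and 0.60 and 0.21 for Pdia4. A rise or fall here is thus not that of TAC without 332. Its p-value is not read as support for such a change. Of the 10 members 3 rose and 1 fell, so 4 of 10 passed, beside 39.5% of all genes. Pdia4 rose by 0.41 (SE 0.06, adjusted p = 3.45e-05, edgeR), Creld2 by 0.35 (SE 0.11, adjusted p = 0.0116) and Manf by 0.20 (SE 0.06, adjusted p = 0.017). Dnajb9 fell by 0.14 (SE 0.05, adjusted p = 0.0399), and Hyou1 at 0.16 (SE 0.06) had an adjusted p of 0.0506. With the clock term 0 of 10 passed and in file set 1 alone only Pdia4 did. Without sham vehicle replicate 3, Pdia4 was again the only rise and the fall was that of Hspa5 (-0.15) in place of Dnajb9, and without sham 332 replicate 2 the rises were 5. The fall of Dnajb9 also ended without the file set term or the low-count filter, with the replicate block, and without any 1 of 7 single hearts (sham 332 replicates 4 and 5, sham vehicle replicates 1 and 3, TAC 332 replicates 2 and 3 and TAC vehicle replicate 2).

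Given as values, since they share libraries with the choice of members, the separate TAC effects stand side by side here, with no test of their difference. In vehicle hearts Creld2 changed by 0.73 (SE 0.16), Sdf2l1 by 0.68 (SE 0.29), Pdia4 by 0.60 (SE 0.10), Manf by 0.51 (SE 0.10) and Hyou1 by 0.50 (SE 0.10). With the clock term the median of the members there went from 0.37 to 0.15, and Sdf2l1 stood at -0.14. In hearts on 332, Creld2 changed by -0.03 (SE 0.14), Manf by -0.11 (SE 0.08), Hyou1 by -0.19 (SE 0.08) and Hspa5 by -0.33 (SE 0.07). Pdia4 kept a change of 0.21 (SE 0.08).

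Around the members, TAC averaged over vehicle and 332 hearts changed Atf6 by 0.42 (SE 0.05, adjusted p = 4.18e-06 by edgeR). The averaged change of Atf4, the effector of Perk, was 0.38 (SE 0.05). That of Herpud1, a factor of ER-associated degradation, was -0.72 (SE 0.11), and -0.38 with the clock term. Taken apart, Atf6 changed by 0.59 (SE 0.08) in vehicle hearts and 0.24 (SE 0.07) in hearts on 332. Herpud1 changed by -0.93 (SE 0.16) and -0.51 (SE 0.14) in that order. The counts and changes that follow are of the averaged effect, for which 39.5% of all genes were called. Of 42 other chaperones and foldases 12 rose and 7 fell, among them Serpinh1, the collagen chaperone, at 0.78 (SE 0.07). Heat shock proteins rose in 15 of 21 cases and fell in 3, among them Hspb1 at 1.18 (SE 0.12), and Cirbp, an RNA-binding protein induced by cold, fell by 0.90 (log2 -0.90, SE 0.08). Fibroblast and matrix markers rose in 11 of 14 cases and summed to 1407 to 3595 CPM in TAC against 930 to 1064 CPM in sham hearts. Their part in the changes of the members was not tested.

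In rat myocytes, whose values the choice rule did not use, 915 split the members. In scramble cells 4 of 10 rose and 4 fell, beside 42.2% of all genes called. The rises were in Sdf2l1, Dnajb9, Hspa5 and Manf, and the falls in Pdia4, Hsp90b1, Pdia6 and Hyou1. For each of these 8 the libraries of the groups did not overlap, in the direction of the call. The share of all genes with that pattern was not counted, so nothing more is read from it.

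**Figure D4:**
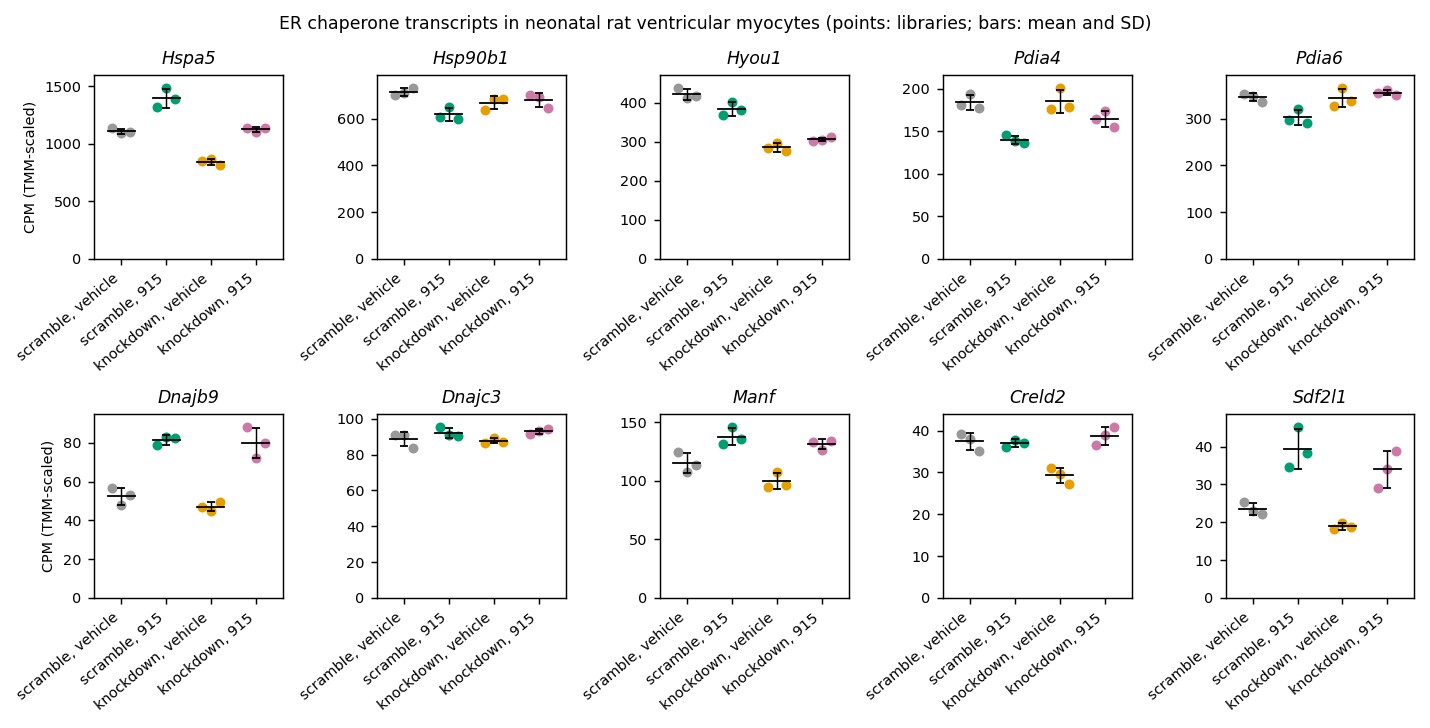
CPM of each member in every rat library (points), with the group mean and SD. Dnajb9 rises with 915 from 48.0 to 56.5 CPM to 78.8 to 83.1 CPM in scramble cells, while Pdia4 falls from 177 to 194 CPM to 136 to 145 CPM.

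Dnajb9 stood at 56.5, 48.0 and 53.0 CPM with vehicle and at 78.8, 83.1 and 82.7 CPM with 915, a rise of 0.63 (SE 0.07, adjusted p = 1.48e-07). Sdf2l1 rose from 25.4, 23.1 and 22.2 CPM to 34.6, 45.0 and 38.3 CPM, by 0.74 (SE 0.11, adjusted p = 3.67e-06). Hspa5 rose from 1133, 1089 and 1102 CPM to 1321, 1483 and 1386 CPM, by 0.33 (SE 0.05). Manf rose by 0.26 (SE 0.06), the least of the 4.

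Pdia4 went the other way, from 181, 194 and 177 CPM to 145, 138 and 136 CPM, a change of -0.40 (SE 0.06, adjusted p = 4.17e-06). Hsp90b1 changed by -0.21 (SE 0.05), Pdia6 by -0.19 (SE 0.05) and Hyou1 by -0.13 (SE 0.05, adjusted p = 0.0258). Creld2 at -0.02 (SE 0.08) and Dnajc3 at 0.05 (SE 0.05) did not pass. The call of Hyou1 was lost without the low-count filter and without scramble 915 replicate 1 or 3 or scramble vehicle replicate 1.

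With the receptors knocked down, 915 raised 5 of 10 members and lowered 1, beside 35.7% of all genes called. Sdf2l1 rose by 0.85 (SE 0.11), Dnajb9 by 0.77 (SE 0.07), Hspa5 by 0.42 (SE 0.05), Manf by 0.40 (SE 0.06) and Creld2 by 0.40 (SE 0.08). Dnajb9 went from 47.1, 44.7 and 49.4 CPM to 87.99, 72.4 and 79.9 CPM. Pdia4 changed by -0.17 (SE 0.06, adjusted p = 0.0198), a call that ended when knockdown 915 replicate 3 or knockdown vehicle replicate 2 was left out. Dnajb9, Sdf2l1, Hspa5 and Manf thus rose with 915 under both siRNA treatments.

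The difference of the 915 effects (knockdown minus scramble) was above 0 for all 10 members and passed for 1, Creld2, beside 3.73% of all genes. Creld2 differed by 0.42 (SE 0.11, adjusted p = 0.0315 by edgeR), as it changed by -0.02 with 915 in scramble cells and by 0.40 in knockdown cells. DESeq2 called 4 members. The call of Creld2 was lost, with adjusted p values of 0.0504 to 0.0985, without any single scramble 915 library, scramble vehicle replicate 1 or 2, knockdown 915 replicate 2 or 3 or knockdown vehicle replicate 3. Hyou1 (0.24, adjusted p = 0.0504), Pdia6 (0.24, adjusted p = 0.0652) and Hsp90b1 (0.23, adjusted p = 0.0676) did not pass.

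Knockdown of ERRalpha and ERRgamma lowered 5 of 10 members in vehicle cells and raised 0, beside 20.4% of all genes called. At an unadjusted p under 0.05 and by DESeq2 no member was higher either. Hyou1 stood at 437, 411 and 416 CPM with scramble siRNA and at 285, 296 and 275 CPM with the knockdown, a fall of 0.56 (log2 -0.56, SE 0.05, adjusted p = 1.54e-09). Hspa5 changed by -0.40 (SE 0.05), from 1133, 1089 and 1102 CPM to 847, 868 and 813 CPM. Creld2 changed by -0.35 (SE 0.08), Sdf2l1 by -0.32 (SE 0.11) and Manf by -0.21 (SE 0.06). Pdia4 at 0.01, Pdia6 at -0.01 and Dnajc3 at -0.01 did not pass. Manf (adjusted p = 0.0163) and Sdf2l1 (adjusted p = 0.042) both lost their calls, leaving 3 members, without knockdown vehicle replicate 1 or 3 or scramble vehicle replicate 1, and Sdf2l1 also without scramble vehicle replicate 2 or 3.

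In 915-treated cells the knockdown lowered Hyou1 (-0.33, SE 0.05) and Hspa5 (-0.31, SE 0.05) and raised Pdia4 (0.23, SE 0.06), Pdia6 (0.23, SE 0.05) and Hsp90b1 (0.14, SE 0.05), 5 of 10 beside 33.9% of all genes. Hyou1 and Hspa5 were thus lower with the knockdown under both treatments. The rise of Hsp90b1 (adjusted p = 0.0352) was lost when only the compared groups were fitted, without the low-count filter, and without knockdown 915 replicate 1 or 2 or scramble 915 replicate 1 or 3.

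**Figure D5:**
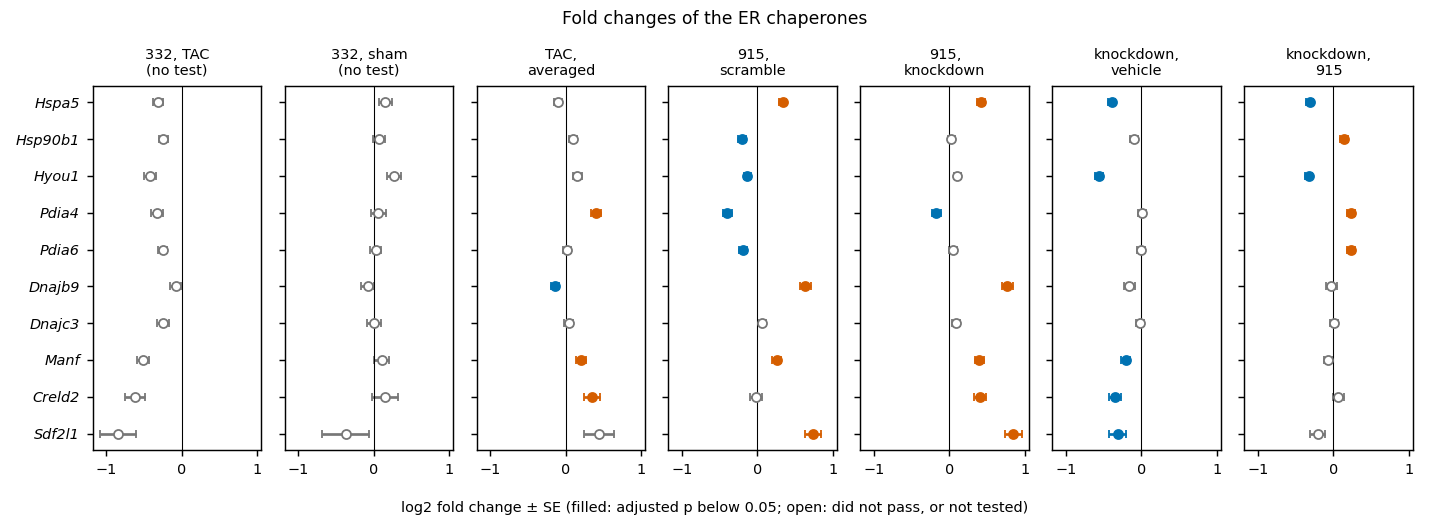
Log2 fold change (± SE) of each member in 7 comparisons. Filled points passed an adjusted p of 0.05 (orange higher, blue lower) and open points did not pass or, for the 2 comparisons with 332, were not tested; 915 raised Dnajb9 and lowered Pdia4 in both kinds of cell.

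Other genes of the pathway were also called with 915 in the rat cells, where many genes were called. Of 16 targets of Atf4 and Perk, 14 rose in scramble cells and all 16 in knockdown cells, with 0 falls by edgeR, by DESeq2 or at an unadjusted p under 0.05. Among them was Ppp1r15a, which restarts translation, at 0.95 (SE 0.06) and 1.04 (SE 0.06). The sensors and their factors went both ways in scramble cells. Ern1 rose by 0.58 (SE 0.07), Atf6 by 0.50 (SE 0.05) and Xbp1 by 0.44 (SE 0.06). Creb3l1, a related factor of matrix-secreting cells, changed by -0.85 (SE 0.07). Creb3 (-0.36, SE 0.05), Mbtps1 (-0.31, SE 0.05) and Creb3l2 (-0.27, SE 0.05) were called lower as well. Eif2ak3, which encodes Perk, did not pass at -0.04 (SE 0.07). Of 42 other chaperones and foldases 6 rose and 14 fell in scramble cells, and 13 rose and 7 fell in knockdown cells. Of all genes 42.2% were called in scramble cells and 35.7% in knockdown cells, so these counts are not read as a response of that list. Calr changed by -0.26 (SE 0.06) and Canx, its membrane-bound relative, by -0.23 (SE 0.05) in scramble cells.

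Fibroblast and matrix genes fell with 915 beside these chaperones. In scramble cells 11 of 14 fell and 1 rose, and their sum went from 28190 to 30579 CPM down to 15378 to 17003 CPM. Smooth muscle and pericyte markers fell in 6 of 8 cases, and their sum went from 5324 to 5636 CPM to 2187 to 2648 CPM. Cardiomyocyte markers went from 14622 to 16184 CPM up to 20618 to 21738 CPM. In knockdown cells 915 also lowered 8 of 14 fibroblast and matrix genes and raised 1, and their sum went from 27498 to 30568 CPM to 18031 to 22368 CPM. The smooth muscle sum there went from 5450 to 6125 CPM to 2809 to 3304 CPM, while Hsp90b1 (0.03) and Pdia6 (0.05) did not pass. The part of these cells in the changes of the members was not tested. In vehicle cells the knockdown left the matrix sum at 27498 to 30568 CPM, while the cardiomyocyte markers went to 9832 to 10200 CPM. Within the matrix list Dcn (0.45, SE 0.08), P4ha1 (0.32, SE 0.06) and P4ha2 (0.25, SE 0.08) were called higher. Leukocyte markers, at a low level, went from 29.4 to 34.1 CPM up to 54.0 to 54.5 CPM. Endothelial markers went from 33.1 to 35.1 CPM up to 42.6 to 44.9 CPM. In 915-treated cells the knockdown raised 9 of 14 fibroblast and matrix genes, and their sum went from 15378 to 17003 CPM to 18031 to 22368 CPM. The cardiomyocyte markers, 8 of 9 lower, went from 20618 to 21738 CPM down to 7969 to 10173 CPM beside the rises of Pdia4, Pdia6 and Hsp90b1. Their part in those rises was not tested.

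Likeness to the members was measured over single libraries, after the means of each group (in mouse each group within a file set) were removed, against the mean standardised log2 CPM of the 10. In mouse (n = 18 libraries, 9680 genes) the nearest genes outside the list were Arhgef18 (r = 0.84), Atp9b (0.83), Dcun1d1 (0.81), Cxxc5 (0.79), St13 (0.78), Ccnyl1 (0.77), Fbxl14 (0.77) and Phtf1 (0.76). In rat (n = 12 libraries, 11169 genes) they were Foxo3 (r = 0.96), Rbm15b (0.95), Cln3 (0.94), Map3k9 (0.94), Lrrc4b (0.93), Eif6 (0.92), Rbm42 (0.92) and Sun1 (0.92). The members themselves ran from -0.23 (Dnajb9) to 0.81 (Manf) in mouse and from 0.08 (Dnajb9) to 0.90 (Hyou1) in rat. The mean thus stands for some members and not for others. These values share library and depth, are the highest among many genes over few libraries, and are descriptions. In the rat table Dnajc3, Pdia4 and Hsp90b1 overlap another gene model, which held 4, 0 and 0 counts over all libraries.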

How the data were processed

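Poly(A) RNA of 12 rat myocyte libraries was deposited as a table of counts per gene, FPKM and the authors' own comparisons (p-values, log2 fold changes). Per the submitters' processing notes, the rat tools included featureCounts 1.5.0-p3, HISAT2 2.0.5, DESeq2 1.20.0 and StringTie 1.3.3b (build rn6), and the mouse tools Salmon, fastp and DESeq2. For the 18 mouse hearts the authors deposited estimated counts and TPM per transcript (build and annotation not given in the sources used here). The estimated counts were summed from 140790 transcripts to genes and rounded (7.43% were not whole). The rat libraries were unstranded, per the labels' protocols, so reads of overlapping antisense genes cannot be told apart there. The deposited FPKM and TPM served only to order the members and, for TPM, to compare ranges in TAC hearts. The authors' log2 fold changes and p-values served only to count shared calls.

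Counts were fitted with edgeR 4.0.16 (R 4.3.3), TMM scaling, filterByExpr (minimum count 10) and the robust quasi-likelihood test, with Benjamini-Hochberg adjustment over all genes at 0.05. Each species was fitted whole, mouse with a file set term read from lane tags in the file names. All fold changes are log2. The fits were tested on simulated data.

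The members and the 16 other gene lists (written from general knowledge) were chosen with earlier results of these data known. Named genes are all members, a fixed set of pathway and clock genes, up to 3 called members of a list with the smallest adjusted p, and the 8 most alike genes (mean CPM 5 or more). Esrra and Esrrg are named as the check of the knockdown. Creb3, Mbtps1 and Creb3l2 are named to show the other falls in their list. Alternatives were DESeq2 1.42.0, RLE scaling, dropping the low-count filter, only the compared groups, a replicate block, each library left out, no file set term, each file set alone and a clock term. In the authors' deposited table, 8 members were called for 915 in scramble cells, 5 for 915 after the knockdown and 4 for the knockdown alone, all also called here in the same direction.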

Additional observations from a re-analysis of the deposited data

Results flagged for a closer look

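In 30 groups of 5 hearts (10 members in 3 groups of mice), checked for a library far from the others, 3 stood out, where chance flags about 1 in 20 groups. Creld2 stood at 14.8 CPM in 1 TAC vehicle heart, above the other 4. Dnajc3 stood at 32.5 CPM and Pdia4 at 21.4 CPM in 1 TAC heart on 332 each, below the other 4. The 915 effect on Creld2 differed between knockdown and scramble cells by 0.42 in the test of the difference (edgeR, adjusted p = 0.0315). For Hspa5, Hyou1, Creld2 and Manf every TAC heart on 332 lay below the mean of the TAC vehicle hearts. Every sham heart on 332 lay above that of the sham vehicle hearts. The differences, -0.47, -0.68, -0.77 and -0.62 in that order, were not tested, as the members were chosen for their change with 332. The share of all genes with this pattern was not counted. The sham part rests on 3 vehicle hearts. Without sham vehicle replicate 3 the median change of the 10 members with 332 in sham hearts was -0.01, with 3 above 0.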

How the results depend on the processing

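Precision is limited by groups of 3 to 5, by the absence of sham vehicle hearts from file set 2, and by the low counts of Sdf2l1. Leaving out each library in turn gave, for 915 in scramble cells, 4 to 4 members higher and 3 to 4 lower; for 915 in knockdown cells 5 to 5 and 0 to 1; for the knockdown in vehicle cells 0 to 0 and 3 to 5; for the knockdown in 915-treated cells 2 to 3 and 2 to 3; for the difference of the 915 effects 0 to 4 and 0 to 0; and for TAC averaged 1 to 5 and 0 to 1. Member medians ran from -0.34 to -0.29 for 332 in TAC hearts, -0.01 to 0.12 for 332 in sham hearts, -0.48 to -0.30 for their difference, 0.29 to 0.43 for TAC in vehicle hearts and -0.13 to -0.08 for TAC in 332 hearts.

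For the difference of the 915 effects, 2 members were higher with RLE size factors, 4 with DESeq2 and 2 without mitochondrially encoded genes, an alternative chosen after seeing the data. For TAC averaged, 0 members were lower without the low-count filter, without the file set term, with file set 1 only and with the clock score term, and 1 and 0 were higher under the last 2. With the clock score term the median difference of the 332 effects was -0.19 and that of TAC in vehicle hearts 0.15. The cause was not tested.

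In the tested comparisons directions turned for these members. Without mitochondrially encoded genes, Pdia4 was -0.0056 for the knockdown in vehicle cells. For TAC averaged, Dnajc3 was -0.033 with file set 1 only and -0.030 with the clock score term, and Pdia6 was -0.045 with the clock score term. With 1 library left out, log2 changes ran from -0.058 to 0.019 for Creld2 (915, scramble), from -0.0086 to 0.063 for Hsp90b1 (915, knockdown), and from -0.070 to 0.048 for Pdia4, -0.070 to 0.026 for Pdia6 and -0.051 to 0.0065 for Dnajc3 (knockdown, vehicle). They ran from -0.11 to 0.034 for Dnajb9 and -0.0033 to 0.035 for Dnajc3 (knockdown, 915), from -0.00099 to 0.22 for Sdf2l1 (difference of the 915 effects) and from -0.0065 to 0.056 for Pdia6 (TAC averaged).

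With the replicate number as a block, 0 members were lower and 4 higher for TAC averaged, Hyou1 being the addition (0.16, adjusted p = 0.0267, edgeR), and no other count of members changed by over 1.5 times. The numbers do not pair the samples: same-numbered libraries correlated at -0.05 to 0.04 in rat and -0.08 to 0.33 in mouse, where they are different animals.

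Over all genes, 60 were called for 332 in TAC hearts, against 286 higher and 385 lower without the filter, 61 and 122 with DESeq2, 16 and 24 with the replicate block, 8 and 22 in the compared groups alone, 5 and 8 without the file set term, 4 and 6 in file set 1, 1 and 2 in file set 2, and 0 with the clock score term. For TAC averaged the clock score term left 783 higher and 621 lower of 2785 and 2762. For TAC in vehicle hearts it left 38 and 9 of 1900 and 1803, and for the difference of the 915 effects, leaving out scramble 915 replicate 3 left 103 and 156 of 264 and 302. Fits of only the compared groups were not run for contrasts of 4 groups, nor file set 2 alone where a group was missing.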
